A study of Mus musculus with 44 samples.

Results

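Trbv20 is a variable gene of the mouse T cell receptor β chain, and this account describes the β chain CDR3s read from it in B16 tumours. A β chain was taken as Trbv20 when its CDR3 began with the residues Cys-Gly-Ala and ended in 1 of 12 joining endings, since the deposited table gives no variable gene. The members were thus chosen by the residues read in each CDR3, and the start CGARDWGG treated below was selected on the number of tumours that held it. By this rule 2718 of the 72765 distinct β chain CDR3s of the series (3.74%) were Trbv20, and they held 409075 of the 6301600 β chain reads (6.49%). The whole table held 121860 distinct CDR3s of both chains. A CDR3 in a tumour is called an entry here, and 3665 of 95913 β chain entries were Trbv20.

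The tumours were B16F10 melanomas, a mouse line, grown under the skin of the back in wild-type C57BL/6 mice (C57BL/6J in the methods) and harvested on day 12, 100 μg of tissue each, with 1 library per tumour. The groups were 15 tumours treated with AC484, an inhibitor of the phosphatases PTPN2 and PTPN1, 15 treated with anti-PD-1 (aPD-1), an antibody that blocks an inhibitory receptor of T cells, and 14 labelled Vehicle, which the methods describe as no treatment. The labels give no age. The experiment asked how AC484 changes the receptors of the T cells in the tumour. Bulk tissue was used, so more T cells and more receptor RNA per cell cannot be told apart. β chain reads ranged from 32948 to 407156 in AC484 tumours, 58534 to 399662 in aPD-1 tumours and 5060 to 188185 in Vehicle tumours. Primers came in 4 index sets, and 12 of the 14 Vehicle tumours made up set 1, so that only set 2 (10 aPD-1 and 2 Vehicle tumours) and set 3 (7 AC484 and 5 aPD-1 tumours) held more than 1 group.

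The CDR3 is the loop of the receptor that lies over the presented peptide. It is made where a variable (V), a diversity (D) and a joining (J) gene are cut and rejoined, with bases trimmed from each end and bases added between them that no gene encodes. A CDR3 that can arise in many ways, or with few added bases, is made often and can recur in unrelated mice.

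The germline pieces of these CDR3s are shown from GRCm38 because the start CGARDWGG can be read from them. Most whole CDR3s need further bases, since 34.4% of those found in 2 or more tumours can be written from germline bases alone. All lie on the plus strand of chromosome 6, and Trbv20 spans 6:41188273-41188977. The V piece is the end of the last coding exon of Trbv20 (6:41188934-41188977), with the codons of the rule, Cys, Gly and Ala, in capitals. The D pieces are whole genes, Trbd1 at 6:41533201-41533212 and Trbd2 at 6:41542163-41542176, and the capitals in Trbd2 are read as Asp-Trp-Gly. The J pieces run from the start of each gene to the last codon of the CDR3.
Trbv20 end: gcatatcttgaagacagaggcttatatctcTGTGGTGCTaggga
Trbd1: gggacagggggc
Trbd2: ggGACTGGGGGggc
Trbj2-4: agtcaaaacaccttgtacttt
Trbj2-5: aaccaagacacccagtacttt
Trbj2-2: caaacaccgggcagctctacttt
Trbj2-7: ctcctatgaacagtacttc
After Cys-Gly-Ala the germline V end carries an Arg codon and the first bases of an Asp or Glu codon. Trbd2 read in the frame of its capitals gives Asp-Trp-Gly-Gly, and the first 4 bases of Trbd2 are also the last 4 bases of Trbv20. Joining within these bases gives the start CGARDWGG.

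The rule was checked against the annotation. Of 22 functional TRBV genes, 1 has a germline CDR3 that starts with Cys-Gly-Ala, and all 12 endings were found in a TRBJ gene. Of the distinct Trbv20 CDR3s 68.8% (1871) kept the germline Arg at position 4, followed by Ser in 9.20% and Gly in 6.18%. After that Arg, Asp came next in 34.2% (640 CDR3s). Another 481 entries started with Cys-Gly-Ala but had none of the endings, 3.89% of the reads with this start, and they were not members. Of these, 171 ended in the Trbj2-7 residues with the first one changed (EQYF without the Tyr), which is just outside the rule.

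Every tumour held Trbv20 chains, from 6 to 296 distinct CDR3s (median 78.5). The Trbv20 share of distinct β chain CDR3s ran from 3.30 to 4.49% in AC484 tumours (median 3.83%), from 3.22 to 5.36% in aPD-1 tumours (median 3.71%) and from 3.11 to 6.48% in Vehicle tumours (median 4.00%). The groups overlapped, and the 2 highest shares stood in Vehicle tumours. The mean share was 3.90 ± 0.40% in AC484 tumours (SD, n = 15), 3.86 ± 0.54% in aPD-1 tumours (SD, n = 15) and 4.46 ± 0.98% in Vehicle tumours (SD, n = 14). The AC484 tumours were 0.56 percentage points below the Vehicle tumours (95% interval −1.16 to 0.03, adjusted p = 0.0903, two-sided permutation test adjusted over 9 tests). The aPD-1 tumours were 0.60 points below them (−1.22 to 0.02, adjusted p = 0.0903), and AC484 and aPD-1 tumours differed by 0.04 points (−0.31 to 0.40, adjusted p = 0.914). None passed the threshold of 0.05.

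These shares rested on few CDR3s in Vehicle tumours, since the number of distinct β chain CDR3s ranged from 1971 to 8300 in AC484, 698 to 3499 in aPD-1 and 108 to 1383 in Vehicle tumours. The widest interval was that of Vehicle replicate 5, with 7 of 108 CDR3s (6.48%, 95% Wilson interval 3.17 to 12.8%). Drawn to an equal 5060 reads per tumour first, the share was 4.90 ± 0.56% in AC484, 4.30 ± 0.68% in aPD-1 and 4.60 ± 0.95% in Vehicle tumours (SD). At that equal depth the difference of AC484 from Vehicle tumours turned to 0.30 points higher (adjusted p = 0.467), and that of AC484 from aPD-1 tumours, 0.61 points, passed the threshold (adjusted p = 0.0295).

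In an edgeR quasi-likelihood fit of the number of distinct CDR3s in 9 classes of TRBV start, the Trbv20 class did not pass the threshold in any comparison. Its log2 fold change was −0.13 ± 0.09 (SE) in AC484 against Vehicle tumours (edgeR adjusted p = 0.554), 0.00 ± 0.07 in AC484 against aPD-1 tumours (edgeR adjusted p = 0.942) and −0.13 ± 0.10 in aPD-1 against Vehicle tumours (edgeR adjusted p = 0.335). Of the 9 classes 11.1, 33.3 and 22.2% passed it in these comparisons. Over the 44 tumours the class whose share was most like that of Trbv20 was the CASSQ start of Trbv2 and Trbv5 (Spearman rho 0.32), followed by Trbv30 (rho 0.02), both given as a description of shares that sum to a whole.

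The number of distinct Trbv20 CDR3s, unlike the share, rose with treatment. At 5060 β chain reads the AC484 tumours held 21.6 to 65.6 distinct Trbv20 CDR3s (median 40.8), the aPD-1 tumours 12.1 to 41.5 (median 27.6) and the Vehicle tumours 4.31 to 37.0 (median 15.6), as means of 100 draws. All 15 AC484 tumours and 14 of 15 aPD-1 tumours were above the Vehicle median, although the ranges overlapped. AC484 tumours averaged 41.3 ± 10.6 (SD, n = 15), 2.46 times the 16.8 ± 10.7 of Vehicle tumours (SD, n = 14). This difference of 24.5 CDR3s (16.4 to 32.6) had an adjusted p of 9e-05, from a permutation p of 1e-05, the smallest that 100000 permutations can give. AC484 tumours also exceeded aPD-1 tumours, at 28.0 ± 8.15 (SD, n = 15), by 13.2 (6.12 to 20.3, adjusted p = 0.00211, permutation test), and aPD-1 exceeded Vehicle tumours by 11.3 (3.95 to 18.6, adjusted p = 0.0124, permutation test).

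All β chains moved the same way, since at this depth a tumour held 854 ± 274 distinct β chain CDR3s under AC484, 651 ± 163 under aPD-1 and 373 ± 238 under Vehicle (SD). The index set moved with treatment. Within set 3, 7 AC484 tumours averaged 39.4 ± 10.6 and 5 aPD-1 tumours 23.7 ± 5.64 distinct Trbv20 CDR3s (SD, exact permutation p = 0.0215, adjusted p = 0.0644). Within set 2, 10 aPD-1 tumours averaged 30.2 ± 8.56 and 2 Vehicle tumours 15.1 ± 3.44 (SD, exact permutation p = 0.0606, adjusted p = 0.109). AC484 and Vehicle tumours shared no set, so set and treatment cannot be told apart between them. With CDR3s of 1 read left out after the draw, AC484 still exceeded Vehicle tumours, while the other differences fell to 4.10 CDR3s (AC484 against aPD-1, adjusted p = 0.0903) and 3.33 CDR3s (aPD-1 against Vehicle, adjusted p = 0.154).

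**Figure D1:**
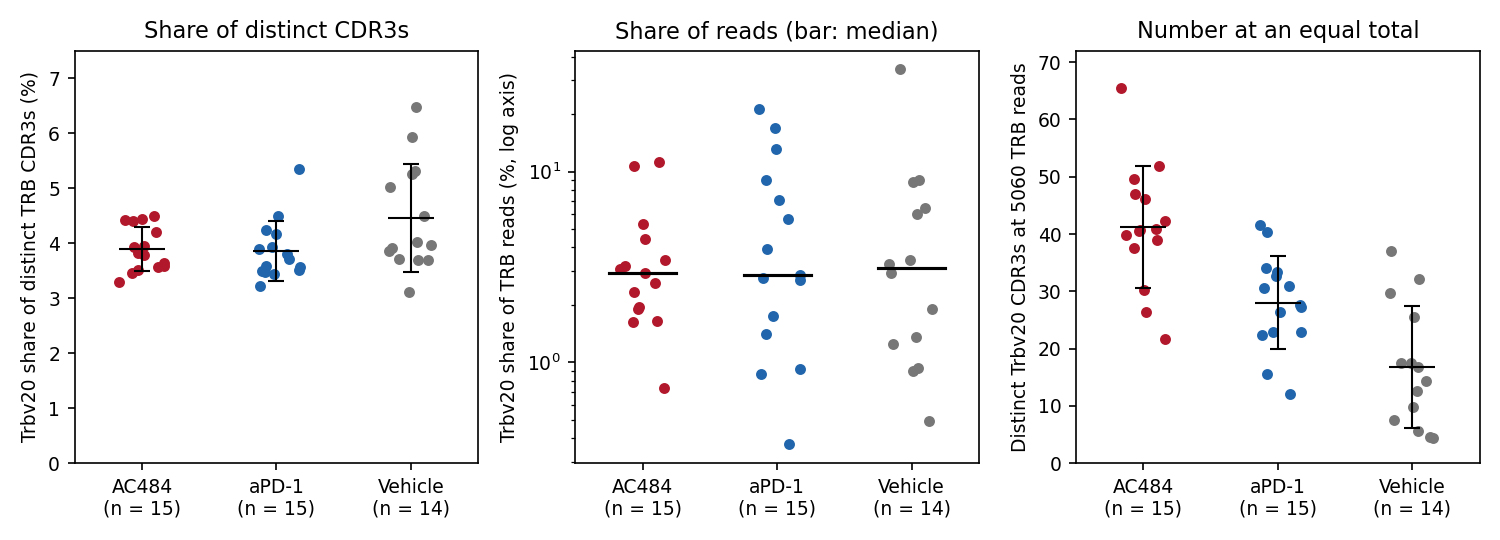
Trbv20 in each tumour (points) by treatment (TRB, β chain). Left, percent of distinct β chain CDR3s, with mean and SD; middle, percent of β chain reads on a log axis, with the median; right, distinct Trbv20 CDR3s among 5060 drawn β chain reads, with mean and SD. The shares overlap in all groups, and the numbers on the right average 41.3 in AC484, 28.0 in aPD-1 and 16.8 in Vehicle tumours.

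By reads, Trbv20 differed far more between tumours than between treatments. Its share of β chain reads ran from 0.738 to 11.2% in AC484 tumours (median 2.95%), from 0.371 to 21.3% in aPD-1 tumours (median 2.88%) and from 0.493 to 34.3% in Vehicle tumours (median 3.11%). The medians lay close together, and the means followed a few tumours with a large clone. They were 3.81 ± 3.12, 6.04 ± 6.39 and 5.79 ± 8.69% in AC484, aPD-1 and Vehicle tumours (SD). The difference was −1.98 points for AC484 against Vehicle (−7.18 to 3.23, adjusted p = 0.701), −2.23 for AC484 against aPD-1 (−6.06 to 1.59, adjusted p = 0.361) and 0.26 for aPD-1 against Vehicle (−5.62 to 6.14, adjusted p = 0.936), by permutation test. Vehicle replicate 14 set the direction of the first. Without it AC484 tumours were 0.21 points above Vehicle tumours (adjusted p = 0.936).

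The single CDR3s behind these read shares are given because each held the most Trbv20 reads of its tumour, from 32.4 to 96.5% of them. Of the 10 tumours with the largest Trbv20 read share, 2 were AC484, 5 aPD-1 and 3 Vehicle tumours. In Vehicle replicate 14, 62201 reads of 1 CDR3 with Trbj2-4 were 33.1% of all β chain reads and 96.5% of the Trbv20 reads. In aPD-1 tumours the leading CDR3 held 13.7% of β chain reads in replicate 2 (Trbj2-3), 8.68% in replicate 8 (Trbj1-4), 8.30% in replicate 1 (Trbj2-7), 7.12% in replicate 5 (Trbj2-7) and 4.98% in replicate 12 (Trbj1-1). In AC484 tumours it held 8.14% in replicate 7, where it began with CGARDRGQI, had 15 residues and used Trbj1-4, and 3.45% in replicate 5 (Trbj2-4). The sequences of those of up to 14 residues, with the tumour in which each led, are as follows.
Vehicle 14: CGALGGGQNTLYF
aPD-1 2: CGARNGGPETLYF
aPD-1 8: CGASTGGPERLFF
aPD-1 1: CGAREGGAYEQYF
aPD-1 5: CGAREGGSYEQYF
Vehicle 11: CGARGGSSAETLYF
aPD-1 12: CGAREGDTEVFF
Vehicle 8: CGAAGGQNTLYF
AC484 5: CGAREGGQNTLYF
None of these carried the Asp-Trp-Gly of Trbd2. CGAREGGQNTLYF, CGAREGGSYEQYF and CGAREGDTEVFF can be written from germline bases alone, whereas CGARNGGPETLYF, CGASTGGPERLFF and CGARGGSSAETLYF need at least 3 added bases.

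Expanded Trbv20 clones, with at least 1% of the β chain reads of their tumour, numbered 7 in 5 of 15 AC484 tumours, 14 in 8 of 15 aPD-1 tumours and 11 in 8 of 14 Vehicle tumours. All expanded β chain entries numbered 218 in AC484, 205 in aPD-1 and 184 in Vehicle tumours. The Trbv20 clones were 32 of these 607 entries and 29 different CDR3s of 12 to 15 residues. The share of CDR3s that were expanded was 2.17 ± 5.15% for Trbv20 and 1.94 ± 4.05% for other β chains of the same tumours (SD, n = 44), a difference of 0.23 points (95% interval −0.56 to 1.03, adjusted p = 0.651, sign-flip permutation test over tumours). In reads per CDR3, Trbv20 was higher. The mean of log10 reads was 0.97 for Trbv20 and 0.88 for the other β chains, higher in 37 of 44 tumours (difference 0.09, 0.05 to 0.13, adjusted p = 8.4e-05, sign-flip permutation test). With CDR3s that hold Asp-Trp-Gly left out of both, the difference fell to 0.04 (0.00 to 0.09) and did not pass (adjusted p = 0.133). The CDR3s left out include those with the start CGARDWGG, selected on its sharing. The sign-flip p over all CDR3s is therefore not independent of that selection.

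Trbv20 joined J genes in other proportions than the remaining β chains did. Trbj2-4 stood out. It made up 13.9 ± 5.60% of distinct Trbv20 CDR3s and 7.60 ± 1.37% of the other β chain CDR3s (SD, n = 44), and it was higher with Trbv20 in 40 of 44 tumours (6.28 points, 95% interval 4.42 to 8.15). Trbj2-2 was also higher, at 8.44 ± 4.35% against 6.05 ± 0.75% (31 of 44 tumours, 2.39 points, 1.06 to 3.71). Trbj2-1, at 11.6 ± 5.90% against 14.0 ± 1.62% (lower in 33 tumours), and Trbj2-3, at 7.22 ± 4.15% against 9.77 ± 1.01% (lower in 32 tumours), were lower with Trbv20. The adjusted p was 5.25e-05 for Trbj2-4, 0.00168 for Trbj2-2, 0.0206 for Trbj2-1 and 7e-04 for Trbj2-3 by sign-flip permutation test over tumours, adjusted over 21 measures, of which 8 passed. CDR3s with the start CGARDWGG, selected from these data, made up 136 of 463 Trbv20 entries with Trbj2-4 and 42 of 305 with Trbj2-2. They also count in the total of every J share, so these p are not independent of that selection. The Trbj2-1 call was lost with CDR3s of 1 read left out (adjusted p = 0.114) and with counts under 1% of a CDR3's largest left out (adjusted p = 0.102).

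The other J genes did not pass this test. Trbj2-7, the most used with Trbv20, made up 15.1 ± 6.35% of Trbv20 and 15.2 ± 1.49% of other CDR3s (−0.04 points, −2.02 to 1.93), and Trbj2-5 made up 11.5 ± 5.65 and 12.5 ± 1.36% (−1.06 points, −2.90 to 0.78). Of the Trbj1 genes, Trbj1-1 (8.19 and 9.64%), Trbj1-2 (5.78 and 6.08%), Trbj1-3 (6.57 and 6.00%), Trbj1-4 (6.87 and 7.08%), Trbj1-5 (2.12 and 2.64%) and Trbj1-6 (2.69 and 3.39%) had adjusted p from 0.140 to 0.814. Trbj1-3 and Trbj2-4 both end in NTLYF and were told apart by 1 residue.

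What came between V and J differed more. Asp-Trp-Gly, the residues of Trbd2 in the frame shown, stood between the first 3 residues and the J ending in 20.4 ± 7.45% of Trbv20 CDR3s and 5.88 ± 0.71% of the others (SD, n = 44), higher in 43 of 44 tumours (14.5 points, 12.3 to 16.8). Leu-Gly-Gly, which another frame of Trbd2 can give, was rarer with Trbv20, at 2.31 ± 1.68% against 4.75 ± 0.60% (lower in 42 tumours, −2.44 points, −2.98 to −1.90). Both had an adjusted p of 5.25e-05 from the smallest permutation p. The Leu can also come from V, since the count includes the germline Leu of the start CASSL of several other TRBV genes, which Trbv20 lacks. With Trbj1 genes, Leu-Gly-Gly was in 0.250% of Trbv20 and 1.16% of other entries. Its p is therefore no test of a Trbd2 frame. Asp-Trp-Gly is part of the start CGARDWGG, which was selected from these data and made up 400 Trbv20 entries. Its p is therefore not independent of that selection. The frames of Trbd1 did not pass, with Gly-Gln-Gly in 2.71 and 3.27% (adjusted p = 0.241) and Asp-Arg-Gly in 2.58 and 2.61% (adjusted p = 0.971), nor did Gly-Thr-Gly, which both D genes can give, in 3.20 and 4.25% (adjusted p = 0.0974). Gly-Thr-Gly passed with CDR3s of 1 read left out (adjusted p = 0.0151) and in the 29 tumours with at least 50 distinct Trbv20 CDR3s (adjusted p = 0.000105), and Gly-Gln-Gly in the first of these (adjusted p = 0.0474), both lower with Trbv20. Trbv20 CDR3s were shorter, by 0.61 residues on average (13.5 ± 0.24 against 14.1 ± 0.06 residues, shorter in 43 of 44 tumours, adjusted p = 5.25e-05, sign-flip permutation test). The germline start of Trbv20 (CGAR) is itself shorter than that of most other TRBV genes, such as CASSL or CTCSA, though not of Trbv4 (CASS) or Trbv30 (CSSR). The members were chosen by this start, so the p for length is not independent of the rule.

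The J preference and the D frame went together. Over all tumours Asp-Trp-Gly was in 43.2% of the 463 Trbv20 entries with Trbj2-4, 37.5% of 429 with Trbj2-5 and 37.0% of 305 with Trbj2-2, against 7.80, 8.93 and 6.94% of other entries with the same J gene. It was in 19.4% of Trbv20 entries with Trbj2-7 and in 0.465% or less with the Trbj1 genes, which lie upstream of Trbd2 on the chromosome, except for Trbj1-3 with 9.00%. When CDR3s with Asp-Trp-Gly were left out of Trbv20 and of the other β chains alike, the Trbj2-4 difference fell to 1.28 points (95% interval −0.35 to 2.91, adjusted p = 0.271) and that of Trbj2-2 to 0.52 points (−0.92 to 1.97, adjusted p = 0.586). Trbj2-1 (−1.64 points, adjusted p = 0.146) and Trbj2-3 (−1.52 points, adjusted p = 0.133) did not pass either. Trbj2-5 was then lower with Trbv20, by 2.90 points (adjusted p = 0.0162). The omission itself took 37.5% of Trbv20 and 8.93% of other entries with Trbj2-5, so this p is no independent test of Trbj2-5 usage. The shorter length remained, at −0.86 residues (adjusted p = 1e-04), with the same limit from the germline start.

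**Figure D2:**
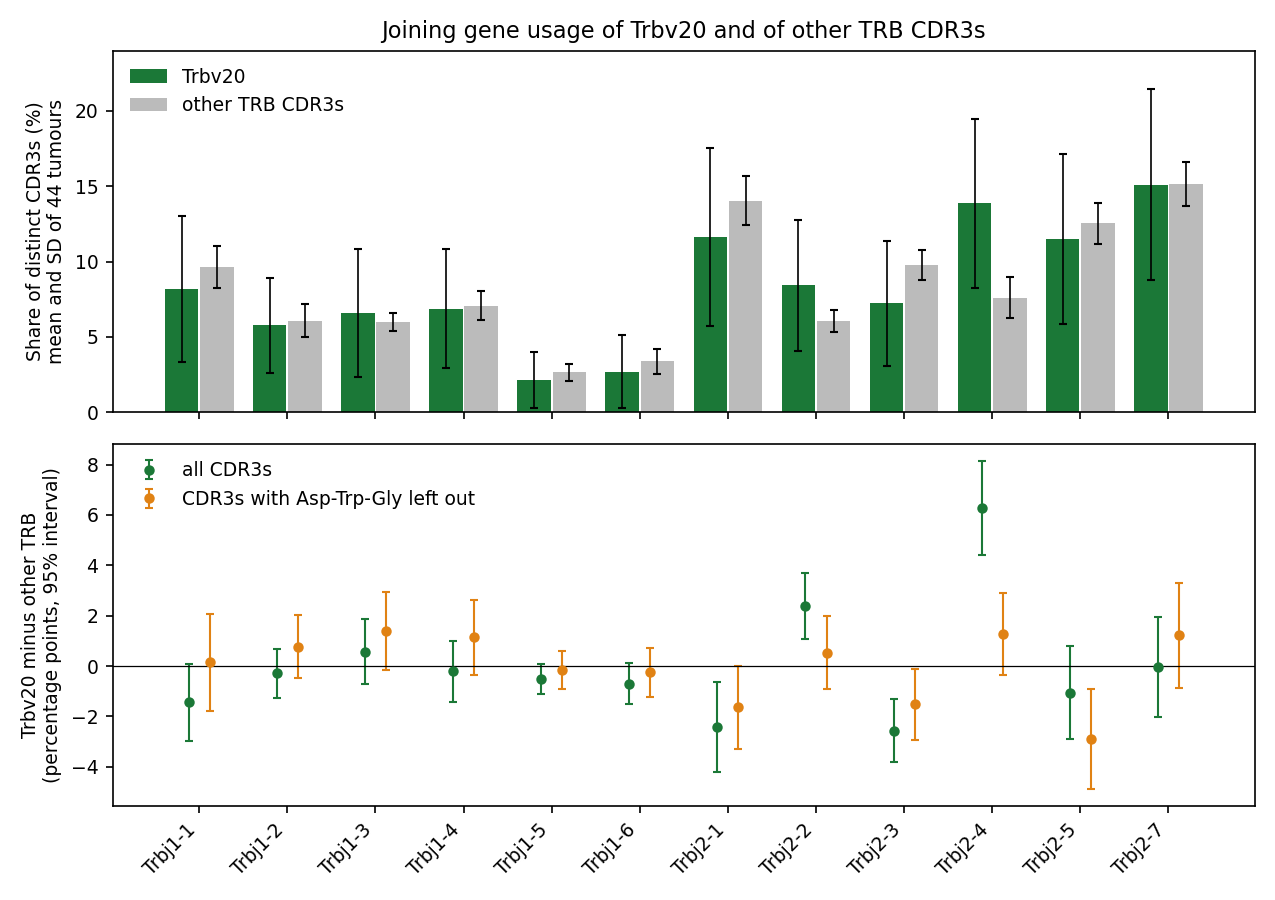
Joining gene usage of Trbv20 CDR3s. Top, percent of distinct CDR3s with each Trbj gene for Trbv20 (green) and other β chains (grey), mean and SD of 44 tumours; bottom, the difference within tumours in percentage points with its 95% interval, for all CDR3s (green) and with Asp-Trp-Gly CDR3s left out (orange). The Trbj2-4 difference is 6.28 points in the first case and 1.28 in the second.

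By treatment, 1 J partner of Trbv20 passed the test in 1 of 3 comparisons. Of the 12, 10 had at least 100 entries and entered the edgeR fit of V class and J gene, and none passed in AC484 against Vehicle tumours, where 2.47% of the 81 pairs tested did, nor in aPD-1 against Vehicle tumours, where 0% did. At an unadjusted p under 0.05 there were 1 and 0, and DESeq2 also called 0 in each. In AC484 against aPD-1 tumours 8.64% of all pairs passed and 1 of the 10 Trbv20 pairs did. This was Trbj2-7, lower in AC484 tumours (log2 fold change −0.49 ± 0.16 SE, edgeR adjusted p = 0.0240), at 12.2 ± 1.88% of Trbv20 CDR3s in AC484, 17.0 ± 4.97% in aPD-1 and 16.2 ± 9.35% in Vehicle tumours (SD). The call was lost with CDR3s of 1 read left out, with the replicate block and with the index set as a term of the fit. Trbj2-4 was 12.4 ± 4.27% of Trbv20 CDR3s in AC484, 13.6 ± 4.59% in aPD-1 and 15.8 ± 7.41% in Vehicle tumours, above its share in other β chains of the same tumours (6.97, 7.38 and 8.49%) in each group.

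Most Trbv20 CDR3s were private. Of the 2718, 2369 (87.2%) were found in 1 tumour, 208 in 2, 119 in 3 to 9 and 22 in 10 or more, with 39 tumours as the most. Found in at least 2 tumours were 12.8% of Trbv20 and 15.3% of the 70047 other β chain CDR3s, while 0.809 and 0.360% were found in 10 or more. Taken per tumour, 41.9 ± 16.4% of Trbv20 and 40.7 ± 8.70% of other CDR3s recurred in another tumour (SD, n = 44), a difference of 1.17 points (95% interval −2.73 to 5.08, adjusted p = 0.651, sign-flip permutation test). The Trbv20 side includes the CDR3s with the start selected on its sharing, so this is no independent test of sharing. With Asp-Trp-Gly CDR3s left out, 33.7% of Trbv20 and 40.1% of other CDR3s recurred. That is no test of sharing either, because the CDR3s left out include those with the start selected on its sharing.

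The share of CDR3s that could be written from germline bases is given for private and shared Trbv20 CDR3s as a description. The fewest bases that Trbv20, 1 Trbd gene and the J gene cannot supply was 0 for 15.4% of the CDR3s found in 1 tumour and for 34.4% of those found in 2 or more, with means of 2.55 and 1.61 bases. Because the table has residues and not bases, this number is the fewest possible, and the bases really added are not known. Over the 2718 CDR3s the number of tumours and this number had a Spearman rho of −0.17, while CDR3 length and the number of tumours had a rho of 0.00, both across CDR3s, which are not independent replicates.

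**Figure D3:**
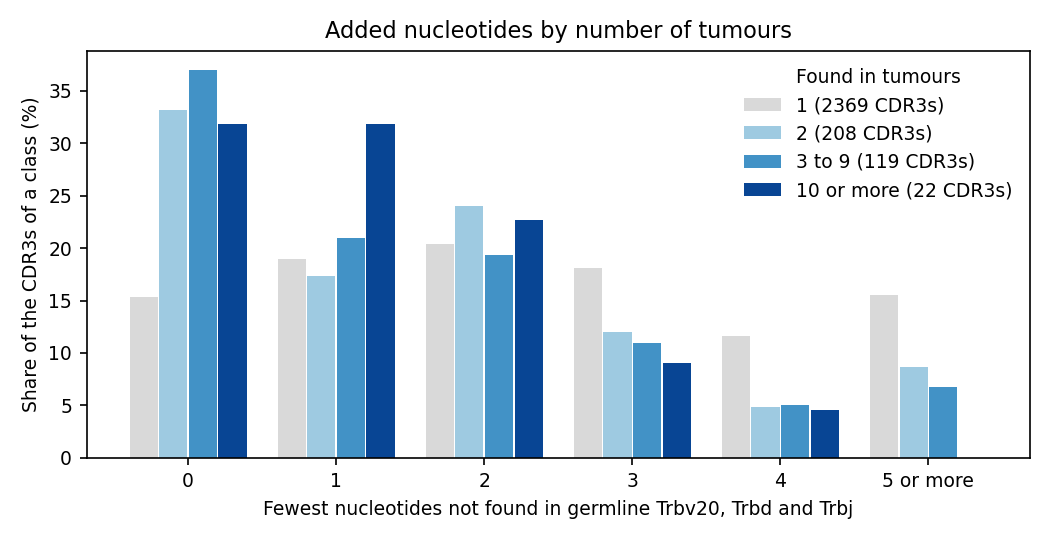
Percent of Trbv20 CDR3s (vertical axis) by the fewest bases not found in germline V, D and J (horizontal axis), for CDR3s found in 1, 2, 3 to 9 or 10 or more tumours. CDR3s that need 0 such bases are 15.4% of those in 1 tumour, 33.2% of those in 2, 37.0% of those in 3 to 9 and 31.8% of those in 10 or more.

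The start CGARDWGG was carried by the 5 most widely found Trbv20 CDR3s. It was chosen for its sharing, so its values are a description with no test. It was carried by 95 distinct CDR3s (3.50% of Trbv20 CDR3s), 400 entries (10.9%) and 29229 reads (7.15%), in 15 of 15 AC484, 15 of 15 aPD-1 and 12 of 14 Vehicle tumours. The 2 Vehicle tumours without it, replicates 2 and 5, had only 9 and 7 distinct Trbv20 CDR3s. Of the 95, 51 were in 2 or more tumours (53.7%), against 298 of the other 2623 Trbv20 CDR3s (11.4%), and 10 of the 22 found in 10 or more tumours had this start. The next most frequent starts of 8 residues were CGARDWGA with 15 and CGASDWGG with 14 distinct CDR3s, in 21 and 16 tumours. CGARDWGS, with 11 distinct CDR3s, was in more tumours (30), against 42 for CGARDWGG. With Asp-Trp-Gly-Gly anywhere in the middle, 62 of 165 distinct Trbv20 CDR3s (37.6%) and 212 of 1146 other β chain CDR3s (18.5%) were in 2 or more tumours. The 165 include the 95 with the start chosen for its sharing, which hold 51 of the 62. These shares are therefore no comparison of Trbv20 with the other β chains.

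Length and J gene were narrow in this set. Of the 95, 75 had 15 residues, and the J genes were Trbj2-5 in 32, Trbj2-4 in 19, Trbj2-1 in 14, Trbj2-3 in 10, Trbj1-3 in 8, and Trbj2-2 and Trbj2-7 in 6 each, with none from the other Trbj1 genes. The 36 found in at least 3 tumours held 92.1% of the reads of the start. Of these 31 had 15 residues, 11 each with Trbj2-4 and Trbj2-5, and 3 each with Trbj2-1, Trbj2-2 and Trbj1-3. Of the remaining 5, a Trbj2-7 CDR3 of 14 residues in 4 tumours went on with Ala, and the others are shown because each can be read as the V end, the Trbd2 residues and the J ending.
Trbj2-7, 12 tumours: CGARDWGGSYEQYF
Trbj2-3, 6 tumours: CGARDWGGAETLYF
Trbj2-5, 5 tumours: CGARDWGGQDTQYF
Trbj2-7, 5 tumours: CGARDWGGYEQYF
Of the 36, 8 need 0 added bases and 29 need at most 2.

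The most shared CDR3 of the series among Trbv20 chains began with CGARDWGGD, had 15 residues and used Trbj2-4. It was in 39 of 44 tumours, namely 15 of 15 AC484 tumours (16 to 1909 reads, median 159), 15 of 15 aPD-1 tumours (4 to 865 reads, median 212) and 9 of 14 Vehicle tumours (2 to 123 reads, median 14). As a share of β chain reads it was 0.0486 to 0.976% (median 0.153%) in AC484, 0.00100 to 0.405% (median 0.0855%) in aPD-1 and 0.0201 to 0.155% (median 0.0360%) in those Vehicle tumours. The groups overlapped, and the tumours without it were all Vehicle tumours. Vehicle tumours also held fewer distinct β chain CDR3s (median 483, against 2985 in AC484 and 2075 in aPD-1 tumours). The part of this in the absence was not tested.

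The 4 that followed also had 15 residues. The one that began with CGARDWGGN and used Trbj2-5 was in 15 of 15 AC484, 10 of 15 aPD-1 and 4 of 14 Vehicle tumours, and it can be written from germline bases alone. The Trbj2-2 CDR3 that began with CGARDWGGD was in 12, 11 and 4 tumours of these groups. The Trbj2-5 CDR3 with that start was in 14, 11 and 1, and the Trbj2-4 CDR3 that began with CGARDWGGL in 9, 6 and 4. These numbers of tumours were not taken at an equal depth. None of the CDR3s with the start was expanded, and the highest share of β chain reads reached by any was 0.976%.

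**Figure D4:**
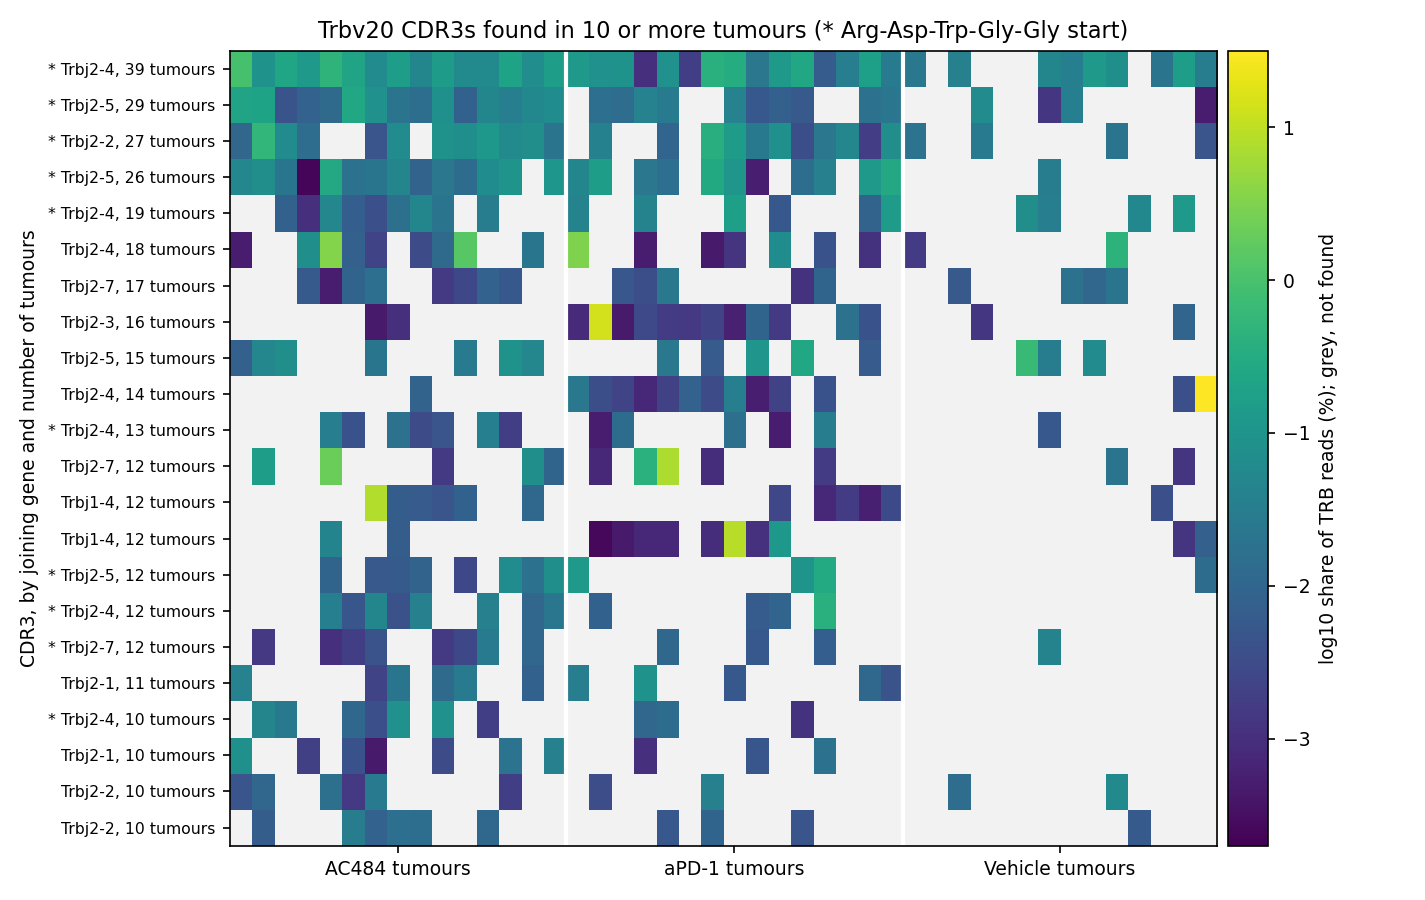
The 22 Trbv20 CDR3s found in 10 or more tumours (rows, in order of the number of tumours and labelled with the J gene; asterisks mark the shared start), in each tumour (columns, AC484, aPD-1 and Vehicle). Colour is the log10 of the percent of β chain reads, and grey is not found. The row at the top is in 39 tumours and never above 0.976%, while rows without an asterisk include single tumours with up to 33.1%.

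The median part of the Trbv20 reads held by the start was highest in AC484 tumours. There it held 3.18 to 37.1% of Trbv20 reads (median 25.4%), against 0.493 to 41.1% in aPD-1 tumours (median 9.96%) and 0 to 29.5% in Vehicle tumours (median 4.34%), with overlapping ranges. As a share of distinct Trbv20 CDR3s it was 11.0 ± 3.31% in AC484, 11.9 ± 5.08% in aPD-1 and 12.0 ± 6.27% in Vehicle tumours (SD). At 5060 β chain reads a tumour held 7.74 ± 1.91 CDR3s with the start in AC484, 4.88 ± 2.22 in aPD-1 and 2.27 ± 1.47 in Vehicle tumours (SD). The leading Trbv20 clone held a median of 19.1% of Trbv20 reads in AC484, 42.7% in aPD-1 and 55.0% in Vehicle tumours, and its part in the share of the start was not tested.

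**Figure D5:**
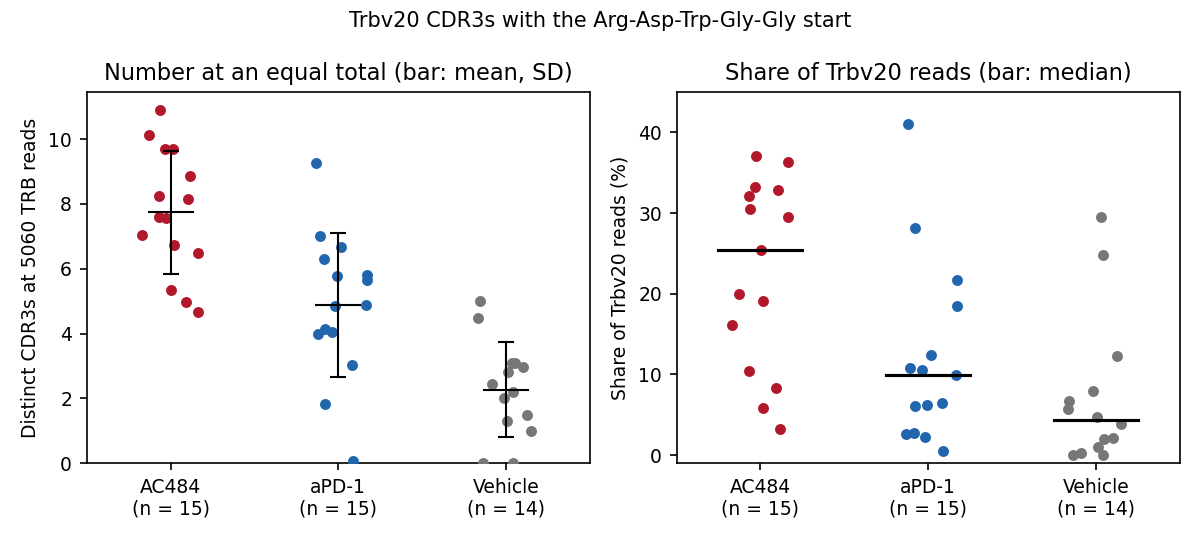
CDR3s with the shared start in each tumour (points) by treatment. Left, their number among 5060 drawn β chain reads, with mean and SD (7.74, 4.88 and 2.27 in AC484, aPD-1 and Vehicle tumours); right, their percent of the Trbv20 reads, with the median (25.4, 9.96 and 4.34%).

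Other widely found Trbv20 CDR3s had a different pattern, in which 1 tumour held nearly all reads. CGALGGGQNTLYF was in 14 tumours, but 99.7% of its reads were in Vehicle replicate 14, and the 13 others had at most 84 reads, under 1% of the largest count. Of these 13, 11 were the 11 other tumours of the same index set. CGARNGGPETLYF was in 16 tumours with 99.9% of its reads in aPD-1 replicate 2, and 10 of the 15 others were in the same index set. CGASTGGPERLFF was in 12, of which 10 had under 1% of its largest count and 8 of these shared its index set. For the Trbj1-4 CDR3 that began with CGARDRGQI (12 tumours, 99.8% of reads in AC484 replicate 7) 4 of 11 low counts lay in its index set, and for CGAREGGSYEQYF (12 tumours, 75.0% of reads in aPD-1 replicate 5) 3 of 8. The index set thus moved with the low counts of some of these CDR3s more than of others, and its part in them was not tested.

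For CDR3s with the shared start the part of the reads in 1 tumour varied. It was 18.4 to 58.0% for the 10 found in 10 or more tumours, and 18.4 to 87.4% (median 47.3%) for the 36 found in at least 3. The most shared had 20.3% of its reads in its top tumour, and 9 of 39 tumours were under 1% of its largest count, 1 of them in the same index set. Of the 36 in at least 3 tumours, 28 had every count at or above 1% of their largest. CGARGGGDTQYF (15 tumours, 31.4% of reads in the top tumour) and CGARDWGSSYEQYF (17 tumours, 28.4%) had no count under 1% of the largest. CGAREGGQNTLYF, in 18 tumours, was mixed, with 3.45% of β chain reads in AC484 replicate 5, 3.09% in aPD-1 replicate 1 and 13 tumours under 1% of its largest count. With all counts under 1% of a CDR3's largest left out, 11.4% of Trbv20 and 14.1% of other CDR3s were in 2 or more tumours, and 15 Trbv20 CDR3s were in 10 or more, with 30 tumours as the most.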

How the data were processed

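Per the methods and the reporting summary, the authors amplified α and β chain receptor transcripts from tumour RNA (SMARTer Mouse TCR a/b kit), read them on a MiSeq instrument and called clonotypes in MiXCR; the submitters' notes name mm10. What they deposited is a count of reads for each amino acid CDR3 of each tumour, with α and β chains in one list. It has no V gene, bases or molecular identifiers, and the Wilson interval of a tumour covers counting error only. The deposited clone fraction was not used.

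The members and the lists were chosen with earlier results of these data known. Named CDR3s are the 10 found in most tumours, the leading Trbv20 CDR3 of the 10 tumours with the largest Trbv20 read share, and those with the shared start in at least 3 tumours; CDR3s of 15 or more residues are given by start, length and J gene. A few other CDR3s are named where a sentence turns on them. Groups follow the labels. Group means were compared by permutation (two-sided, 100000 draws, all arrangements where a group held under 10 tumours) with Benjamini-Hochberg adjustment over 9 tests, and an alternative put its own p in place of the one it varied. Intervals of differences are normal-theory 95% intervals from the spread between tumours. Trbv20 and other β chains were compared within tumours by sign-flip permutation. Numbers of distinct CDR3s per TRBV start class, and per class and J gene (rows of at least 100), were tested with edgeR's quasi-likelihood test, library size being the distinct β chain CDR3s. The fewest added bases were searched over trimmed germline V, D and J pieces from GRCm38, without palindromic bases, with Trbd2 allowed only for Trbj2 genes. Each method was tested on simulated data. Alternatives were an equal depth, other filters, the start CGAR, the methods' t-test, DESeq2, TMM, a replicate block and tumours left out; comparisons within index sets, the index set as a term, tumours of at least 20000 β chain reads and the omission of Asp-Trp-Gly were added after seeing the data. The tools were R 4.3.3 with edgeR 4.0.16 and DESeq2 1.42.0, and Python 3.11.15 with SciPy 1.17.1, NumPy 2.4.6, pandas 2.3.3, Biopython 1.88 and matplotlib 3.10.9.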

Additional observations from a re-analysis of the deposited data

How the results depend on the processing

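For the number of distinct Trbv20 CDR3s at an equal total, AC484 against Vehicle kept its direction and its call in all 7 other settings and with each of 29 tumours left out (22.7 to 26.0 CDR3s). AC484 against aPD-1 (11.5 to 14.6 with a tumour left out) and aPD-1 against Vehicle (10.3 to 12.8) lost the call with CDR3s of 1 read left out (4.10 and 3.33) and within index sets (15.8 in set 3, adjusted p = 0.0644; 15.2 in set 2, adjusted p = 0.109), where fewer tumours entered.

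For the share of distinct CDR3s, an equal depth turned AC484 against Vehicle to 0.30 points and brought AC484 against aPD-1 past the threshold (0.61 points). Leaving out counts under 1% of a CDR3's largest brought aPD-1 against Vehicle past it (−0.72 points, adjusted p = 0.0471). With a tumour left out the differences ran from −0.66 to −0.41 (AC484 against Vehicle, past the threshold without Vehicle replicate 9), from −0.0028 to 0.15 (AC484 against aPD-1, turned without aPD-1 replicate 14) and from −0.71 to −0.45 points (aPD-1 against Vehicle, past it without aPD-1 replicate 10 or Vehicle replicate 9). The cause was not tested.

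For the share of reads, AC484 against Vehicle turned to 0.67 points without the largest Trbv20 CDR3 of each tumour and to 0.90 with the start CGAR, AC484 against aPD-1 to 1.68 within index set 3, and aPD-1 against Vehicle to −10.5 within index set 2. None passed the threshold. With a tumour left out they ran from −2.51 to 0.21, −2.76 to −1.14 and −0.83 to 2.45 points.

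Among start classes, TMM turned AC484 against aPD-1 to −0.0052 log2. Of the J partners, 1 (Trbj2-4) passed in AC484 against Vehicle with CDR3s of 1 read left out, and 0 passed in AC484 against aPD-1 with such CDR3s left out, with the replicate block or with the index set as a term. Same-numbered tumours did not deviate together (median r 0.01, −0.02 and 0.02 in the 3 comparisons). The replicate block, applied as pairs of equal number, gave 24.7, 13.2 and 11.6 CDR3s at the equal total and changed no other call.

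Between Trbv20 and the other β chains of a tumour, 10 of 21 measures passed with CDR3s of 1 read left out, 7 with counts under 1% of a CDR3's largest left out, 10 in the 29 tumours with at least 50 distinct Trbv20 CDR3s and 4 of 20 with Asp-Trp-Gly left out. Trbj1-1 also passed with 1-read CDR3s left out, and Trbj1-6 in the 29 tumours. Differences that turned were, with 1-read CDR3s left out, Trbj1-3 (−0.45 points) and Asp-Arg-Gly (0.024), with low counts left out, Trbj1-2 (0.42), in the 29 tumours, Trbj1-3 (−0.61), Trbj2-5 (0.019) and CDR3s found in another tumour (−0.35), and with Asp-Trp-Gly left out, Trbj1-1 (0.15), Trbj1-2 (0.77), Trbj1-4 (1.14), Trbj2-7 (1.22), Asp-Arg-Gly (0.52) and CDR3s found in another tumour (−6.32). None but the last was past the threshold, and that one is no test of sharing, since the CDR3s left out include those selected on it.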
